A study of Bos taurus with 21 samples.

Results

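Among the 21 Holstein cows whose milk somatic cells were sequenced, the 12 cows of the low yielding group (LY) were divided by their breeding value of milk fat, a label given to each cow. Cows with a value below -8.5 formed the lower-fat group and cows with a value above -8 the higher-fat group, with 6 cows in each. The 9 cows of the high yielding group (HY) entered 1 comparison of slopes. All cows were lactating Holsteins, dairy cattle, without any experimental treatment in the labels, and their age is not among the labels used here. A breeding value estimates what a cow passes on to her offspring, so it is not the fat content of the milk that was sampled. RNA came from all cells of the milk together, and the labels do not say that cell types were separated. The question was whether expression in these cells differed with the milk fat value when the yield group was held fixed.

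Milk somatic cells are a mixture of immune cells and of epithelial cells shed from the gland. Macrophages take up fat globules and cell debris and carry genes for storing and breaking down lipid, whereas neutrophils enter the milk when the udder is irritated or infected. Milk fat itself is made in the secretory epithelium, where fatty acids are synthesised or taken up, joined to glycerol by acyltransferases and released in globules wrapped in membrane.

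The milk fat value ranged from -14.377 to -8.711 in the lower-fat cows, with a median of -11.1, and from -7.689 to -2.782 in the higher-fat cows, with a median of -4.44. Cows 3161 (-8.711) and 3272 (-7.689) lay closest to the division. No unit is given for these values. The 2 groups differed in other labels too. Lactation period had a median of 134.5 days (52 to 270) in the lower-fat cows and 231.5 days (59 to 262) in the higher-fat cows. The difference in means was 63.3 days (two-sided exact permutation test, p = 0.188, adjusted p = 0.366 over 6 labels), which so few cows cannot tell from no difference. The breeding value of milk yield had a median of -196 (-404.27 to -85.191) against -59.0 (-368.867 to 86.92), with an exact permutation p = 0.0909 and an adjusted p = 0.273. For milk protein the medians were -6.90 (-13.24 to -2.573) and -0.910 (-7.872 to 1.268), with an exact permutation p = 0.0260 and an adjusted p = 0.156. Parity (2 to 4 in both groups), milk solids and the counts on genes, with exact permutation p = 0.697, p = 0.305 and p = 0.247, gave adjusted p of 0.366 or more in the same exact tests. The smallest p that 924 divisions of 12 cows allow is 0.00216. Because the higher-fat cows also had higher median protein and yield values and a longer median lactation period, what goes with fat cannot be told apart from what goes with these labels.

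**Figure D1:**
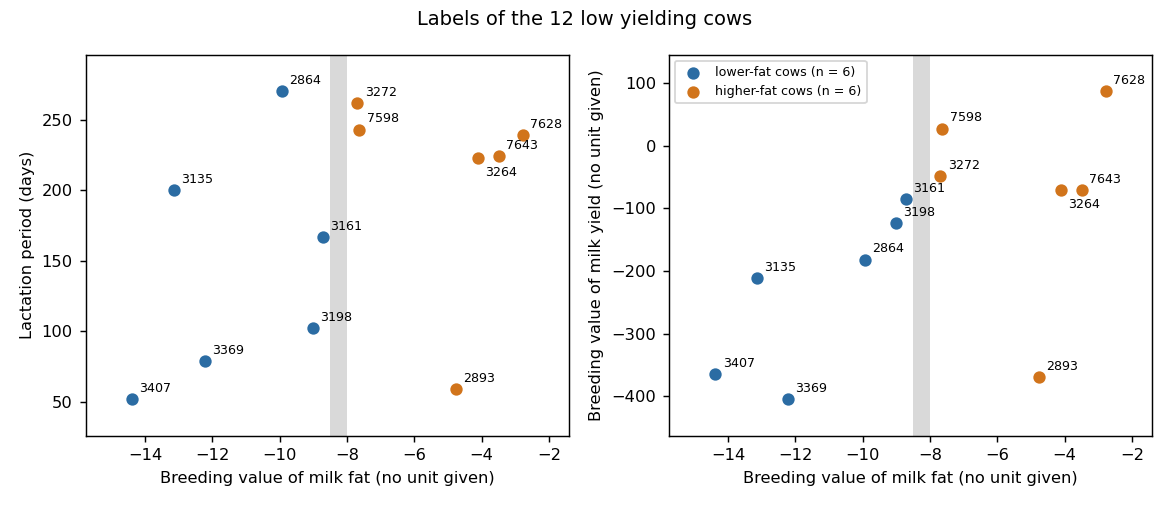
Lactation period in days (left) and breeding value of milk yield (right) against the breeding value of milk fat for the 12 LY cows, 1 point per cow with its number. The grey band is the gap between -8.5 and -8, and 5 of the 6 higher-fat cows lie above 200 days of lactation while cow 2893 lies at 59 days.

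Counts on genes ranged from 8585010 to 28541904 per lower-fat cow and from 10350354 to 22542235 per higher-fat cow. The top 10 genes took 14.3% to 42.9% of the counts in lower-fat cows and 10.9% to 36.9% in higher-fat cows. Of 13570 genes in the tables, 9457 passed the filter on low counts in the 12 cows. Genes of secretory epithelium and of immune cells were detected in every cow. The summed level of 14 milk protein and lactose genes ranged from 72046 to 492467 CPM (counts relative to library size, scaled with TMM factors) in the lower-fat cows and from 11177 to 496810 CPM in the higher-fat cows, the lowest being cow 7643. The summed level of 14 macrophage markers ranged from 15276 to 36748 CPM and from 8839 to 31478 CPM, and that of 10 neutrophil markers from 4425 to 12571 CPM and from 6192 to 21986 CPM. The neutrophil list includes IL8, a chemokine gene that also stands in the cytokine list. IL8 made up most of the highest neutrophil sum, that of cow 7643. By the mapping rate in the study's supplementary table, 1 lower-fat and 3 higher-fat cows formed a class above 85%, cow 7643 among them, and 5 and 3 cows a class under 85%. The class above 85% held too few lower-fat cows for values of its own. Cow 7643 stood apart from the other higher-fat cows in many genes, and values without it are given beside the results it moved most. Because RNA of all cells was measured together, fewer cells of a type and less RNA per cell cannot be told apart in any value below.

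No gene passed an adjusted p under 0.1 when the higher-fat cows were compared with the lower-fat cows by the quasi-likelihood test of edgeR with Benjamini-Hochberg adjustment, where adjusted p began at 0.505. An unadjusted p under 0.05 was found for 726 of 9457 genes (7.68%), of which 507 (5.36%) were higher and 219 (2.32%) lower in the higher-fat cows. DESeq2 gave an adjusted p under 0.1 to 111 genes (1.17%), 96 of them higher (1.02%) and 15 lower (0.159%) in the higher-fat cows, and limma-voom gave it to 0, so the number of calls depended on the tool. The genes below are therefore described by their values, and an adjusted p is that of edgeR unless DESeq2 is named. The phrase p under 0.05 refers to the unadjusted p of the same edgeR test. The 24 genes named for the lowest p, 12 in each direction among genes whose symbol is neither a LOC number nor a date, had an adjusted p of 0.505. Fold changes are log2 values of higher-fat relative to lower-fat cows with their standard error (SE). With lactation period as a covariate, 846 genes (8.95%) had p under 0.05, 477 higher (5.04%) and 369 lower (3.9%), and 0 passed after adjustment. With the milk yield value as a covariate the numbers were 1083 (11.5%), 538 (5.69%) and 545 (5.76%), and without cow 7643 they were 710 (7.49%), 406 (4.28%) and 304 (3.21%), again with 0 after adjustment. Of the 726 genes, 462 kept p under 0.05 and the direction with lactation period as a covariate and 458 with milk yield, and all 726 kept the direction with either.

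Of the 12 named genes lower in the higher-fat cows, FABP4, FABP5, LIPA, MSR1 and VSIG4 stand in the lists of lipid handling or of macrophage markers. FABP4, a carrier of fatty acids in macrophages and fat cells, had 1227, 1689 and 1981 CPM (lowest, median and highest cow) in the lower-fat group and 109, 419 and 1005 CPM in the higher-fat group. Every higher-fat cow lay below every lower-fat cow, which held for 28 of the 9457 genes tested (0.296%). Cow 7643 was the lowest. The log2 fold change was -1.72 ± 0.42 (SE) and -1.51 without cow 7643, and it was -1.78 with lactation period as a covariate. Among the 8 cows of the class under 85% it was -2.02. In DESeq2, FABP4 had an adjusted p of 0.0109.

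FABP5, a related carrier of fatty acids, showed 1576, 1961 and 2487 CPM in the lower-fat and 914, 1065 and 1497 CPM in the higher-fat cows. Its log2 fold change was -0.84 ± 0.23 (SE). LIPA, the lysosomal lipase that frees cholesterol and fatty acids from engulfed lipid, had 1755, 2409.7 and 3141 CPM against 616, 1135 and 1569 CPM. Neither of these 2 genes overlapped between the groups, and the log2 fold change of LIPA was -1.04 ± 0.28 (SE). MSR1, a scavenger receptor of macrophages that binds modified lipoproteins, had 302, 477 and 564 CPM in the lower-fat cows and 119.8, 213 and 285 CPM in the higher-fat cows. Again no cow of one group reached the range of the other, with a log2 fold change of -1.08 ± 0.25 (SE). The DESeq2 adjusted p was 0.0109 for FABP5, 0.0223 for LIPA and 0.0154 for MSR1. FABP4, FABP5, LIPA and MSR1 kept p under 0.05 when any 1 of the 12 cows was left out, as did every gene named for the lowest p. Because these genes were chosen by their p in the same 12 cows, this is not separate support.

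VSIG4, a complement receptor of tissue macrophages, had 135, 188 and 279 CPM in the lower-fat and 61.0, 105 and 138 CPM in the higher-fat cows, and its log2 fold change was -0.93 ± 0.24 (SE). FCGR1A, the high-affinity receptor for IgG, had 175, 183 and 306 CPM against 53.3, 94.5 and 172 CPM (log2 fold change -1.03 ± 0.27, SE). The ranges of VSIG4 overlapped slightly and those of FCGR1A did not. HILPDA, a lipid droplet protein that holds back lipolysis, had 16.2, 22.2 and 38.5 CPM against 6.78, 11.3 and 19.9 CPM (log2 fold change -1.15 ± 0.33, SE). LGALS3, which encodes galectin-3 and is abundant in macrophages, was not in a list and was named after its values were seen. It had 423, 556 and 1152 CPM against 139, 332 and 399 CPM, without overlap (log2 fold change -1.07 ± 0.32, SE, adjusted p = 0.505). The other genes among the 12 named in this direction were XPNPEP2, MANSC1, GDE1, MND1 and GFRA2, with log2 fold changes from -2.16 for GFRA2 to -0.68 for GDE1. GFRA2 had a count of 0 in 1 higher-fat cow. LOC618633, which the naming rule left out, had the lowest p of the lower genes. It had 1.62 to 28.8 CPM in the lower-fat and 0.456 to 1.30 CPM in the higher-fat cows, without overlap (log2 fold change -3.20).

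**Figure D2:**
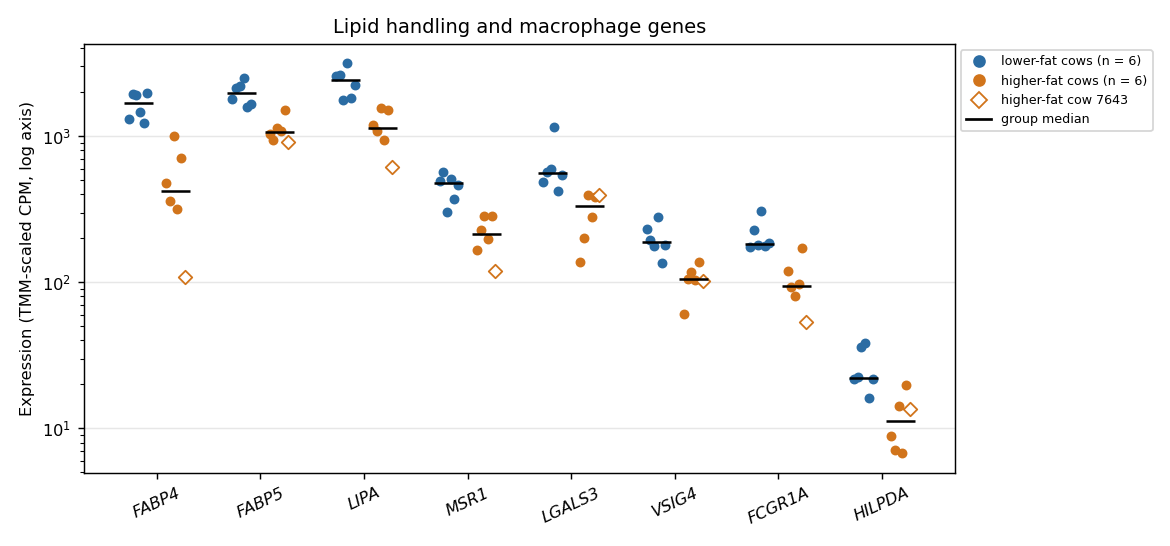
Expression in TMM-scaled CPM on a log axis of 8 lipid handling and macrophage genes, 1 point per cow, lower-fat cows in blue and higher-fat cows in orange with cow 7643 as an open diamond, and a black line at each group's median. FABP4 spans 1227 to 1981 CPM in the lower-fat and 109 to 1005 CPM in the higher-fat cows.

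Over the list of 14 macrophage markers tested, 4 were lower with p under 0.05 and 0 were higher, beside 2.32% of all genes for the lower direction. The 4 were MSR1, VSIG4, MERTK (a receptor for apoptotic cells, log2 fold change -0.85 ± 0.32, SE, adjusted p = 0.601) and GPNMB (-0.84 ± 0.37, SE, adjusted p = 0.625). Of the 14 fold changes 13 were below 0, beside 4447 of the 9457 genes tested. The median of the list was -0.42 on the log2 scale, while the median of all genes tested was 0.03. Without cow 7643 the median of the list was -0.75, and among the 8 cows of the class under 85% it was -1.17. Without lower-fat cow 3198 the median was -0.12 and 2 genes were lower with p under 0.05, and without higher-fat cow 3264 they were -0.26 and 3. MERTK no longer had p under 0.05 without cow 3198 (-0.70), and GPNMB kept it in 5 of 12 fits omitting 1 cow. Widely used macrophage genes had smaller differences: CD68 had a median of 1548 CPM in the lower-fat and 1620.2 CPM in the higher-fat cows (log2 fold change -0.21 ± 0.33, SE, adjusted p = 0.907), and CSF1R, the receptor that macrophages need to survive, 456 and 368 CPM (-0.31 ± 0.34, SE, adjusted p = 0.882). The part of macrophage abundance in the values of FABP4, FABP5 and LIPA was not tested.

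In the list of fatty acid uptake and activation, FABP4 and FABP5 were the 2 of 11 genes with p under 0.05, both lower, beside 2.32% of all genes. Of the 11 fold changes 9 were below 0, beside 4447 of the 9457 genes tested. CD36, a receptor for long-chain fatty acids, had 1777, 2462 and 3379 CPM in the lower-fat and 1109, 1708 and 2753 CPM in the higher-fat cows, and the ranges overlapped (log2 fold change -0.49 ± 0.30, SE, adjusted p = 0.729). LPL, the lipase that releases fatty acids from circulating lipoproteins, had 508, 765 and 927 CPM against 56.7, 526 and 941 CPM (adjusted p = 0.836), the lowest value being that of cow 7643. The list of cholesterol efflux and lipid droplets held LIPA and MSR1 as its 2 lower genes of 16 and ABCG1 as its 1 higher gene, beside 2.32% and 5.36% of all genes. ABCG1, an exporter of cholesterol, had a log2 fold change of 1.86 ± 0.81 (SE, adjusted p = 0.619) that was 0.18 without cow 7643, in which it reached 121 CPM. In fatty acid oxidation 16 of 20 fold changes were below 0, beside 4447 of the 9457 genes tested, with a median of -0.25. Only HADHB, a subunit of the mitochondrial trifunctional protein, had p under 0.05 (-0.42 ± 0.20, SE, adjusted p = 0.645), beside 2.32% of all genes. HADHB kept it in 1 of 12 fits omitting 1 cow. With lactation period as a covariate 4 genes of this list were lower with p under 0.05, beside 3.9% of all genes, and the median was -0.30.

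In de novo fatty acid synthesis 0 of 11 genes had p under 0.05, in elongation and desaturation 0 of 9, and in cholesterol synthesis 0 of 21, beside 7.68% of all genes. FASN, the fatty acid synthase, had 75.2, 242 and 1057 CPM in the lower-fat cows and 92.6, 343 and 1441 CPM in the higher-fat cows. The groups overlapped over nearly their whole ranges (log2 fold change 0.77 ± 0.70, SE, adjusted p = 0.856). The same held for ACACA, the carboxylase upstream of it (0.29 ± 0.49, SE, adjusted p = 0.916), and for SCD, which desaturates stearate and had 194, 704 and 2618 CPM against 65.2, 1337 and 2816 CPM (0.29 ± 0.76, SE, adjusted p = 0.946). Without higher-fat cow 3264 the fold change of SCD was -0.09. That of FASN ranged from 0.27 to 1.55 in fits omitting 1 cow, with p under 0.05 at 1.55, without lower-fat cow 3369.

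Of the globule proteins, XDH had a median of 1010.5 CPM in the lower-fat and 1707 CPM in the higher-fat cows (log2 fold change 0.77 ± 0.51, SE, adjusted p = 0.765). BTN1A1, butyrophilin of the globule membrane, had 42.8 to 1265 CPM and 7.38 to 1309 CPM (0.57 ± 0.95, SE, adjusted p = 0.916), and PLIN2, the coat of cytoplasmic lipid droplets, 813 to 1892 CPM and 823 to 2235 CPM (0.03 ± 0.31, SE, adjusted p = 0.990). FABP3, the fatty acid carrier of the mammary epithelium, ranged from 328 to 5327 CPM and from 67.9 to 12984 CPM (1.27 ± 1.01, SE, adjusted p = 0.828). Its fold change was 0.26 without higher-fat cow 2893. Without lower-fat cow 3369 it was 2.31 and that of XDH 1.29, both with p under 0.05. BTN1A1 and FABP3 spread widely within both groups, and so did beta-casein, CSN2, with 5980.0 to 116573 CPM and 778 to 130402 CPM. In the list of globule secretion VAMP4, a vesicle fusion protein, was the 1 gene of 12 with p under 0.05 (-0.61 ± 0.28, SE, adjusted p = 0.635), beside 2.32% of all genes for the lower direction. VAMP4 kept it in 4 of 12 fits omitting 1 cow. The milk protein list held 0 of 14 and the epithelial marker list 0 of 17, beside 7.68% of all genes. Among the 8 cows of the class under 85%, 5 of the 17 epithelial markers were higher with p under 0.05. Their median log2 fold change was 0.99 in that class and 0.36 in the 12 cows. The medians were 1.03 and 0.32 for the milk protein list and 0.71 and 0.24 for globule secretion. XDH was 1.31 in that class, with p under 0.05.

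Triacylglycerol assembly held 2 higher and 1 lower gene of 12 with p under 0.05, beside 5.36% and 2.32% of all genes, and without cow 7643 it held 1 of each, the lower one no longer being AGPAT5. AGPAT9, also known as GPAT3, which adds the first fatty acid to glycerol-3-phosphate, had 43.4, 54.8 and 67.3 CPM in the lower-fat cows and 66.0, 98.2 and 265 CPM in the higher-fat cows. The groups met only at their edges, and the log2 fold change was 1.38 ± 0.35 (SE, adjusted p = 0.505), with a DESeq2 adjusted p of 0.0180. AGPAT9 kept p under 0.05 when any 1 cow was left out, and its log2 fold change was 1.10 without cow 7643. AGPAT6, also known as GPAT4, an enzyme of the same step that is abundant in lactating mammary tissue, had 56.8, 90.9 and 192 CPM against 104, 169 and 1192 CPM. Its log2 fold change of 1.62 ± 0.58 (SE, adjusted p = 0.564) was 0.59 without cow 7643 and no longer had p under 0.05.

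AGPAT5, an acyltransferase of the following step, was lower, with 23.5, 34.6 and 45.7 CPM against 10.2, 22.6 and 30.9 CPM (log2 fold change -0.70 ± 0.29, SE, adjusted p = 0.619), and kept p under 0.05 in 9 of 12 fits omitting 1 cow. DGAT1, which adds the last fatty acid, had medians of 11.6 and 12.1 CPM. Its highest value, 44.4 CPM, was in cow 7643, and the log2 fold change of 0.44 ± 0.39 (SE, adjusted p = 0.851) was -0.11 without that cow. GPAM, the mitochondrial enzyme of the first step, had 32.2 to 502 CPM and 5.80 to 1028 CPM (0.83 ± 0.93, SE, adjusted p = 0.882), and its fold change was 0.085 without cow 2893. Of 16 lipogenic regulators, STAT5A (0.63 ± 0.24, SE, adjusted p = 0.604), a mediator of prolactin signalling, and PRKAA1 (0.65 ± 0.29, SE, adjusted p = 0.627), the catalytic subunit of the energy sensor AMPK, were higher with p under 0.05, beside 5.36% of all genes. STAT5A lost it without cow 7643 (0.42), and PRKAA1 kept it in 5 of 12 fits omitting 1 cow. SREBF1, a master regulator of lipid synthesis, had medians of 38.0 and 35.5 CPM (adjusted p = 0.889), and PPARG 7.30 and 5.05 CPM (adjusted p = 0.900).

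**Figure D3:**
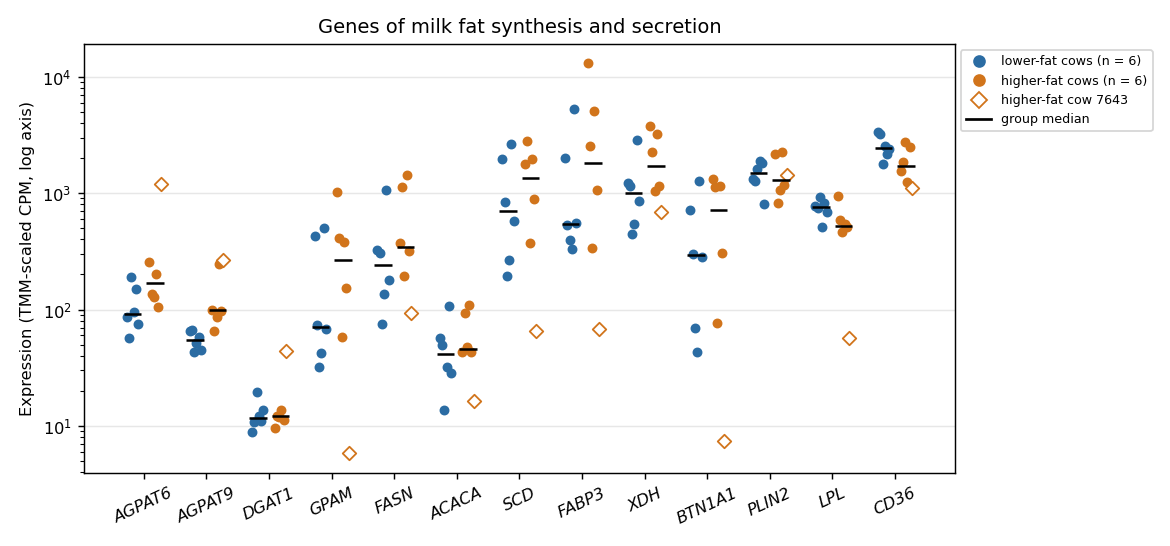
Expression in TMM-scaled CPM on a log axis of 13 genes of milk fat synthesis, uptake and secretion in the 12 LY cows, marked as in the plot of lipid handling genes. AGPAT9 spans 43.4 to 67.3 CPM in the lower-fat and 66.0 to 265 CPM in the higher-fat cows, while FASN, SCD, FABP3 and BTN1A1 overlap widely.

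Of the 12 named genes higher in the higher-fat cows, PTGS2 stands in the list of inflammatory cytokines and chemokines. PELI1, a ubiquitin ligase in Toll-like receptor signalling, had the lowest p of all genes. It had 67.2, 79.4 and 87.8 CPM in the lower-fat and 109.8, 169 and 248 CPM in the higher-fat cows. Every higher-fat cow was above every lower-fat cow, and the log2 fold change was 1.12 ± 0.21 (SE). CREBBP, a histone acetyltransferase and co-activator, was separated as well, with 107, 120.3 and 126 CPM against 178, 196 and 278 CPM (0.86 ± 0.19, SE). The fold changes of PELI1 and CREBBP without cow 7643 were 1.09 and 0.87, and in the class under 85% they were 1.04 and 0.79. Their DESeq2 adjusted p were 0.00156 and 0.00332. Both had p under 0.05 whichever 1 cow was left out, but they were chosen by their p in the same cows.

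PTGS2, the inducible cyclooxygenase of prostaglandin synthesis, had 74.6, 99.7 and 166 CPM against 122, 321 and 653 CPM, and the ranges overlapped at their ends (log2 fold change 1.59 ± 0.35, SE). VEGFA, the growth factor for blood vessels, had 56.6, 92.0 and 133 CPM against 90.1, 271 and 438 CPM (1.53 ± 0.36, SE). For PDE4B, a phosphodiesterase that degrades cyclic AMP in leukocytes, the values were 183, 274 and 434 CPM and 336, 759 and 1195 CPM (1.39 ± 0.33, SE). In each of the 3 genes the median of the higher-fat cows lay above the highest lower-fat cow. Among the 8 cows of the class under 85% the fold changes of PTGS2 and PDE4B were 1.22 and 0.89 with p under 0.05, and that of VEGFA was 0.73 and no longer had p under 0.05. RABGEF1, TMEM229B, POLB, KIAA0226L, PNRC1, FSD2 and CHD2 completed the 12 named genes in this direction, with log2 fold changes from 0.87 for CHD2 to 1.82 for TMEM229B. In all, 20 genes (0.211%) lay higher in each higher-fat cow than in any lower-fat cow, and 28 (0.296%) lay lower.

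Of 21 inflammatory cytokines and chemokines, 14 were higher and 1 was lower with p under 0.05, beside 5.36% and 2.32% of all genes. The median log2 fold change of the list was 1.59. These counts leaned on cow 7643: without it the median was 0.71, and 5 to 16 of the genes were higher with p under 0.05 in fits that omitted 1 cow at a time. Among the 8 cows of the class under 85% the count was 3 and the median 0.56. With lactation period as a covariate the count was 6 and the median 1.43. IL1B, a central cytokine of inflammation, had 337, 602 and 1669 CPM in the lower-fat cows and 782, 1726 and 14541 CPM in the higher-fat cows. Only cow 7643 exceeded 2502 CPM. The log2 fold change was 2.36 ± 0.69 (SE, adjusted p = 0.505) with this cow and 1.13 without it, where p was still under 0.05.

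TNF had 18.5, 22.5 and 91.7 CPM against 19.97, 59.3 and 988 CPM, and IL8, a chemokine that attracts neutrophils, 551, 755 and 2099 CPM against 879.7, 1948 and 15576 CPM. The log2 fold changes were 2.69 ± 0.89 (SE, adjusted p = 0.544) for TNF and 2.17 ± 0.68 (SE, adjusted p = 0.516) for IL8. Without cow 7643 they were 0.92 and 1.08, and only that of IL8 kept p under 0.05. NFKBIA, the inhibitor that NF-kB itself induces, had 846, 1006 and 3108 CPM against 988, 3136 and 7448 CPM (1.27 ± 0.47, SE, adjusted p = 0.601), and IL10, which dampens inflammation, 12.04, 19.5 and 22.2 CPM against 14.4, 34.7 and 92.3 CPM (1.34 ± 0.45, SE, adjusted p = 0.550). Without cow 7643 the fold change of NFKBIA was 0.90 and no longer had p under 0.05. CCL2, which attracts monocytes, was the 1 lower gene, with 1157, 2776 and 3887 CPM against 362, 1365 and 2226 CPM (-0.94 ± 0.41, SE, adjusted p = 0.619), and kept p under 0.05 in 7 of 12 fits omitting 1 cow.

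**Figure D4:**
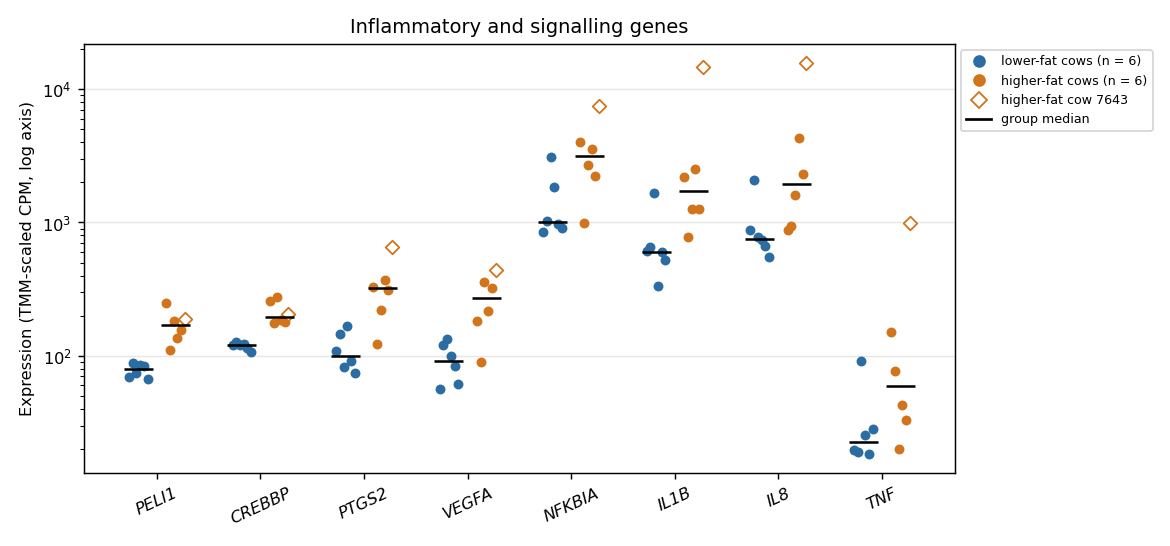
Expression in TMM-scaled CPM on a log axis of 8 inflammatory and signalling genes in the 12 LY cows, marked as in the plot of lipid handling genes. PELI1 and CREBBP do not overlap between the groups, and cow 7643 is the highest for IL1B (14541 CPM), IL8 (15576 CPM) and TNF (988 CPM).

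Of 19 immediate early and stress genes 7 were higher and 0 lower with p under 0.05, beside 5.36% and 2.32% of all genes. Fold changes were above 0 in 18 of these 19 genes, beside 5010 of the 9457 genes tested, with a median of 0.89. The 7 higher genes included JUNB, a subunit of the AP-1 transcription factor, with 48.5, 116 and 284 CPM against 148, 196 and 1187 CPM (log2 fold change 1.56 ± 0.56, SE, adjusted p = 0.564), and DDIT3, a stress-response factor, with 0.94 ± 0.34 (SE, adjusted p = 0.564). Neither kept p under 0.05 in every fit omitting 1 cow: JUNB was 0.86 without cow 7643 and DDIT3 0.60 without cow 2893. Of 17 interferon response genes 4 were higher and 0 lower, beside the same percentages, with a median of 0.93, ISG15 (1.30 ± 0.52, SE, adjusted p = 0.619) and IRF9 (1.22 ± 0.47, SE, adjusted p = 0.613) among them. Without cow 2893 these were 0.94 and 0.61 and no longer had p under 0.05, and ISG15 also lost it without cow 7643 (1.14). In fits omitting 1 cow at a time, the number of higher genes ranged from 1 (without cow 7643) to 11 in the immediate early list and from 2 to 8 in the interferon list. The number in the immediate early list was 2 in the class under 85%, 2 with milk yield and 5 with lactation period as a covariate. The medians of that list were 0.78, 0.73 and 0.78. The median of the interferon list was 0.13 in the class under 85%, 0.47 without higher-fat cow 3272 and 0.53 with lactation period as a covariate.

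Among markers of other cells, 3 of 10 neutrophil genes were higher with p under 0.05, beside 5.36% of all genes, with a median log2 fold change of 0.70. Without higher-fat cow 7598 the count was 1 and the median 0.28, and the count was 1 with lactation period and 0 with milk yield as a covariate. They included the chemokine receptor CXCR2 (276, 562 and 1149 CPM against 525, 1227 and 2592 CPM, adjusted p = 0.564), which lost p under 0.05 without cow 7598, and IL8, which also stands in the cytokine list. S100A8 (0.57 ± 0.44, SE) and S100A9 (0.89 ± 0.49, SE) did not have p under 0.05. Of 19 T and NK cell markers 18 had fold changes above 0, beside 5010 of the 9457 genes tested, with a median of 0.85. In this list 2 genes, PRF1 and NCR1, were higher with p under 0.05, beside 5.36% of all genes. Without cow 7643 their fold changes were 0.68 and 1.05, the list held 0 higher and 1 lower gene, and its median was 0.55. With lactation period as a covariate 0 were higher. Dendritic cell markers had 1 of 9 (BATF3, higher, adjusted p = 0.603), endothelial and stromal markers 1 of 4 (VWF, lower, adjusted p = 0.608), and B and plasma cell markers 0 of 8, beside 5.36% higher and 2.32% lower among all genes. BATF3 lost p under 0.05 without cow 7643 (1.07) and VWF without cow 3198 (-0.74). The part of these cell types in the cytokine and immediate early values was not tested. The antimicrobial list held 1 of 15 (DEFB4A, lower), the complex I list 1 of 36 (NDUFB1, lower), and MHC class II (9 genes), cell division (19 genes) and erythrocyte and platelet markers (2 genes) held 0. With lactation period as a covariate, 4 of the 19 cell division genes were lower with p under 0.05, beside 3.9% of all genes, and their median was -0.60. DEFB4A and NDUFB1 each kept p under 0.05 in 4 of 12 fits omitting 1 cow.

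**Figure D5:**
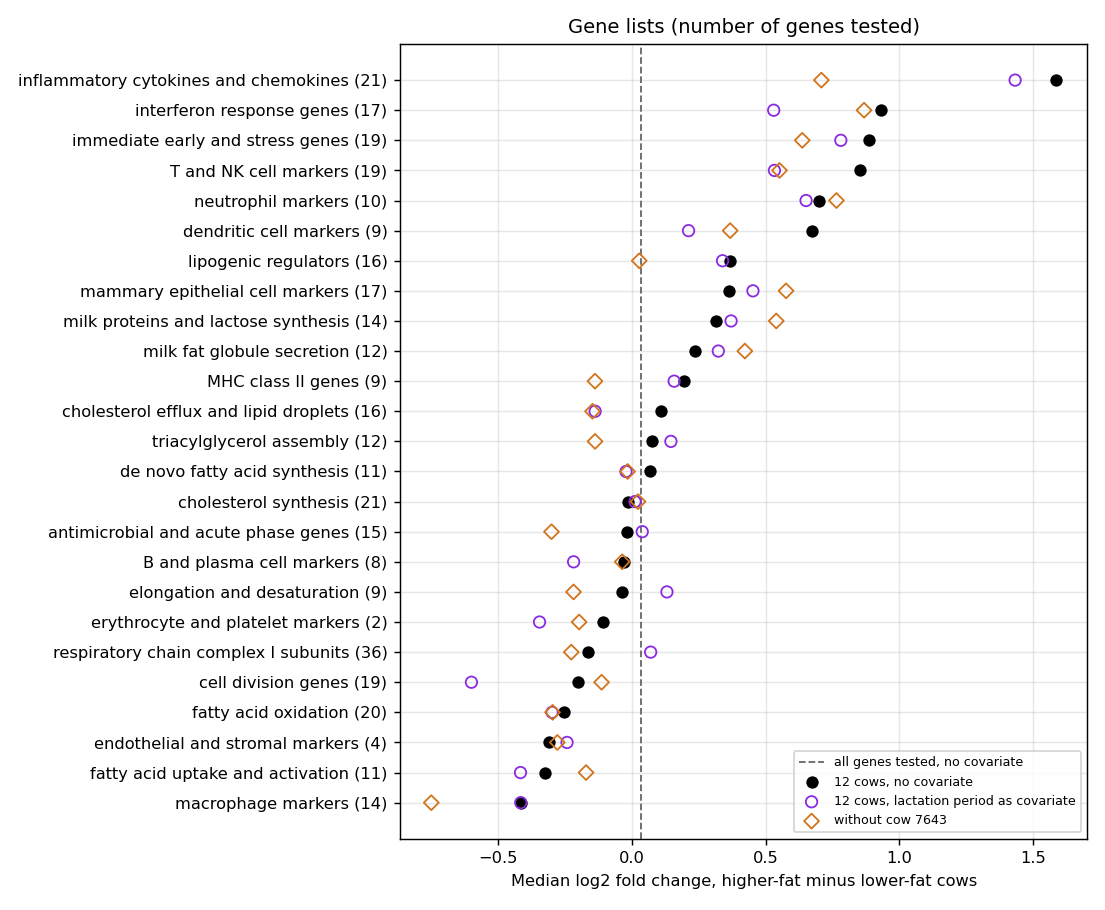
Median log2 fold change of higher-fat against lower-fat cows for each of 25 gene lists, with the number of genes tested in brackets. Filled points are the comparison of 12 cows, open circles the same with lactation period as a covariate, and open diamonds the comparison without cow 7643, in which the median of the inflammatory list is 0.71 in place of 1.59. The dashed line is the median of all genes tested, 0.03.

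When the milk fat value was used as a continuous variable in the 12 cows, 0 genes passed an adjusted p under 0.1 in edgeR (lowest 0.785), and 466 (4.93%) had an unadjusted p under 0.05. The slope was positive in 404 (4.27%) and negative in 62 (0.656%), and 308 of the 726 genes from the group comparison were among them in the same direction. DESeq2 gave an adjusted p under 0.1 to 66 genes (0.698%), of which 64 (0.677%) increased and 2 (0.0211%) decreased with the value. Without cow 7643 the unadjusted number was 161 (1.7%), 140 positive (1.48%) and 21 negative (0.222%). The lowest p with a positive slope belonged to NR4A1, an immediate early nuclear receptor, with a change of 0.27 ± 0.06 (SE, log2 per unit of milk fat value, adjusted p = 0.785), followed by CSF3, TNF, CCL20 and CCL4. CSF3, the growth factor of neutrophils, was between 0.171 and 6.57 CPM in the lower-fat cows and between 0.759 and 161 CPM in the higher-fat cows, the highest being cow 7643. The negative slopes with the lowest p were those of TSPAN12, a tetraspanin (-0.22 ± 0.06, SE), MSR1 (-0.13 ± 0.04, SE), FABP4 (-0.22 ± 0.06, SE), ACBD7 and GFRA2. Of the other lower genes named for the lowest p in the group comparison, LIPA, VSIG4 and GDE1 had a negative slope with p under 0.05. The slopes of FABP5, FCGR1A, HILPDA, XPNPEP2, MANSC1 and MND1 were negative without p under 0.05. In the inflammatory list 16 of 21 genes had a positive slope with p under 0.05, beside 4.27% of all genes. The summed level of this list was 83757 CPM in cow 7643 and 25606 CPM in cow 7598, the next highest. How many of the 16 slopes keep p under 0.05 without cow 7643 was not examined. Of the 14 macrophage markers 2 had a negative and 0 a positive slope with p under 0.05, beside 0.656% and 4.27% of all genes. Their median slope was 0.0012, beside 0.0073 for all genes, so the lower median of the macrophage list in the group comparison was not seen with the continuous value.

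To see whether the slopes differed between the yield groups, the slope in LY was compared with that in the 9 HY cows, whose milk fat values ran from -10.109 to 10.928. All HY cows except cow 3014 (-10.109) lay above the highest LY value, -2.782, so the slopes cover largely separate ranges. The difference in slope passed an adjusted p under 0.1 for 0 of 9372 genes in edgeR (lowest 0.997), and 215 (2.29%) had an unadjusted p under 0.05. Of the latter 184 (1.96%) had the higher slope in LY, and the number was 52 without cow 7643. TNF had a slope of 0.39 ± 0.09 (SE) in LY and -0.03 ± 0.06 (SE) in HY, and the adjusted p of the difference was 0.997. IL1B (0.32 ± 0.09 and -0.06 ± 0.05, SE), NR4A1, FZR1 and GPR146 had the other lowest p. GPR146 reached 146 CPM in cow 7643 and at most 2.89 CPM in the other higher-fat cows. For FABP4 the slopes were -0.22 ± 0.09 (SE) in LY and -0.11 ± 0.12 (SE) in HY, and a difference was not detectable (adjusted p = 0.997).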

How the data were processed

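The deposited files hold whole-number counts of reads per gene for each cow, which the authors made by trimming with Trimmomatic (reads of at least 75 bases kept), mapping to the bosTau7 genome with TopHat2 and Bowtie2, SAMtools handling and counting with HTSeq; tools come from the submitters' processing notes, and versions are not given in the sources used here. Summary lines and the row without a gene name (0.0648% to 0.151% of counts in LY) were left out, and 23 symbols turned into dates were not named. Whether counting used strand is not stated, so overlapping genes and near-identical copies such as chemokine and OAS1 genes are uncertain.

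Groups come from the labels, and each cow was 1 sample. In R 4.3.3, genes were kept by the edgeR 4.0.16 filter (minimum count 10), scaled by TMM and tested with the quasi-likelihood F test and Benjamini-Hochberg adjustment (threshold 0.1) on fat group, fat value, or fat value by yield group. Alternatives used limma 3.58.1, DESeq2 1.42.0, other scaling and filters, covariates (lactation period, parity, milk yield value), mapping rate class (above or under 85%, from the study's supplementary table) and leaving out each cow. Labels were compared by exact permutation. The fits were tested on simulated data with less spread between samples than these cows had, so that test does not show the power reached here. Named genes were the 12 lowest p in each direction among genes whose symbol is neither a LOC number nor a date, list members with p under 0.05, 14 milk fat genes, the 5 lowest p per slope direction and 5 of the slope difference. Other genes were named after their values were seen. The values of 1 list member are not reported here. The groups, gene lists and tests were chosen with earlier results of these data known. Depth limits the precision of low genes, and counts of 8585010 or more per cow leave the spread between cows as the main error (common biological coefficient of variation 0.524).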

Additional observations from a re-analysis of the deposited data

Results flagged for a closer look

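Each of 87 genes and 25 list sums was examined in the 2 groups of 6 cows (224 groups of values, on log2(CPM + 0.5)) for a cow far from the others of its group by Dixon's ratio (critical value 0.625). A cow stood out in 15 of them, where chance gives about 1 in 20, and these values share cows and genes.

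In 8 of the 15 the cow was 7643 of the higher-fat group. It was the highest for AGPAT6 (1192 CPM, the next cow 255 CPM), CXCL3 (1802 CPM, next 268 CPM), DGAT1 (44.4 CPM, next 13.8 CPM), GPR146 (146 CPM, next 2.89 CPM), IL12B (37.8 CPM, next 4.29 CPM), SREBF1 (128 CPM, next 36.6 CPM) and the summed dendritic cell markers (2333 CPM, next 924 CPM). It was the lowest for LPL (56.7 CPM, next 464 CPM).

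The other higher-fat values far from their group were the lowest ones of CCL2 in cow 3272 (362 CPM) and of VSIG4 in cow 2893 (61.0 CPM). In the lower-fat group cow 3161 was the highest for IL1RN (8083 CPM, next 2325 CPM), TNF (91.7 CPM, next 28.4 CPM) and CSF3 (6.57 CPM, next 0.760 CPM), cow 3135 the highest for IL8 (2099 CPM, next 874 CPM), and cow 3407 the lowest for RABGEF1 (38.3 CPM, next 70.4 CPM).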

How the results depend on the processing

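With edgeR or limma-voom, no alternative to the comparison of the fat groups gave a gene an adjusted p under 0.1, whereas DESeq2 gave 111 genes and, for the slope of the milk fat value, 66. The number with an unadjusted p under 0.05 ranged from 524 to 1083 for the fat groups. For the slope (466 genes) it was 920 with lactation period, 944 with parity and lactation period, 1169 with milk yield, 310 with mapping rate class as a term and 266 in cows with a mapping rate under 85%, and from 161 (cow 7643 omitted) to 949 in fits omitting 1 cow. For the slope difference between LY and HY (215 genes) it was 987 with lactation period, 117 with limma-voom and 52 without cow 7643, the last chosen after seeing the data; the cause of these shifts was not tested. Log2 fold changes that turned were ABCG1 -0.11, CXCL3 -0.12, DGAT1 -0.073, SREBF1 -0.28 and PPARG 0.12 in cows with a mapping rate under 85%, SREBF1 -0.024 with mapping rate class, DEFB4A 0.089, PLIN2 -0.11 and SREBF1 -0.12 with quality weights, and PLIN2 -0.0079 with limma-voom. Fits omitting 1 cow gave -0.086 to 0.80 for SCD, -0.11 to 0.60 for DGAT1, -0.14 to 0.15 for PLIN2 and -0.28 to 0.45 for SREBF1. No paired analysis was possible because each cow stands in 1 group only and the labels name no pairs of cows.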
